A study of Mus musculus with 1 sample.

Results

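The 40 genes described here encode proteins of DNA replication and S phase, chosen by symbol from the 27998 genes listed in the library. They comprise the MCM helicase subunits Mcm2 to Mcm7 and the other licensing factors, the factors that activate the helicase, DNA polymerase and primase subunits, the sliding clamp with its loader and RPA, Fen1 and Lig1, the enzymes of nucleotide supply, the histone chaperone and histone mRNA factors, and the E type cyclins. All 40 genes were detected, with between 71 and 2251 unique molecular identifiers (UMIs, each tagging 1 captured transcript) per gene in the cells kept.

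Single cell RNA-sequencing with 10x Genomics version 2 chemistry was analysed for 1 library of Zscan2+/+ cells (wild-type, strain C57BL/6) from testes at postnatal day 8. Equal numbers of cells from 3 mice were pooled, so mice cannot be told apart. Cells with the surface protein THY1, a marker used to enrich undifferentiated spermatogonia, were selected on magnetic beads, and some unselected testis cells were added back. The Zscan2−/− library was not analysed here.

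Before a cell divides, the origin recognition complex with Cdc6 and Cdt1 loads the MCM helicase onto DNA in G1. Cdc45 and the GINS complex activate the helicase in S phase, polymerases copy both strands, and geminin (Gmnn) prevents Cdt1 from loading helicase again. Many of these genes are known targets of E2F transcription factors and rise at the G1/S transition. In the testis of a mouse pup spermatogonia divide, as do immature Sertoli cells, the somatic cells that line the seminiferous tubule and stop dividing as they mature.

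Since E2F sites are the regulatory sequence best known for this group, RefSeq promoter windows (build GRCm38.p6, 250 bases before to 50 after the start of a transcript) were searched on both strands for TTTCCCGC, TTTCGCGC, TTTGCCGC and TTTGGCGC, in which matches can overlap. A window was listed for 32 of the 40 genes, with 36 windows in all, and 12 of those windows (33.3%), 1 for each of 12 genes, held a match. Among all 32851 windows the share was 2.26%. Genes of replication outside the 40 had a match in 18 of 59 windows, and genes of a G2/M list had a match in 1 of 39 windows. A CCAAT box (CCAAT or ATTGG) was found in 58.3% of the windows of the 40 genes, in 76.9% of those of the G2/M list and in 37.4% of all windows. These matches are a description of the letters in each window. The stretches before the start that held a match are shown for 8 genes, with the matched bases in capitals, 5′ to 3′ on the strand of the gene. Where a stretch overlaps an annotated gene, it is kept to 30 bases at most. The start meant here is that of the RefSeq transcript. In the gene annotation the stretches of Orc1, Mcm7, Rfc3, Gins3 and Cdc6 overlap the gene itself. The stretch of Mcm7 also overlaps Ap4m1.

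Mcm6, chr1:128359725-128359835, minus strand: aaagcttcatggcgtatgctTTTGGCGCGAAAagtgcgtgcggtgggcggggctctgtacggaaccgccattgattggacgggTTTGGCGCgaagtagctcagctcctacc
Mcm5, chr8:75109336-75109387, plus strand: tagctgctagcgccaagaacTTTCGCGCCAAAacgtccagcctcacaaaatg
Pola1, chrX:93632266-93632313, minus strand: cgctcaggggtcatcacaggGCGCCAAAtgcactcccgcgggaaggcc
Orc1, chr4:108579416-108579445, plus strand: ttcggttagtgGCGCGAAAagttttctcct
Mcm7, chr5:138172030-138172059, minus strand: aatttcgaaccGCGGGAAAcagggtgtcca
Cdc6, chr11:98908002-98908031, plus strand: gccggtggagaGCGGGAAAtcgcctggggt
Gins3, chr8:95633507-95633536, plus strand: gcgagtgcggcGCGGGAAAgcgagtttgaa
Rfc3, chr5:151651209-151651229, minus strand: acgtcgcacgcTTTCGCGCtc

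Mcm6 and Mcm5 each held a run in which a pair of matches on opposite strands overlapped, and Mcm6 had another match 40 bases before its start. The other 4 genes with a match, Mcm3, Lig1, Pold1 and Cdt1, had none that ended before the start of the transcript.

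Of 970 barcodes, with 2655 to 44915 UMIs each, 920 cells passed the filters. Clusters were named from marker genes after the 40 genes and further lists of replication and G2/M genes had been taken out of the variable genes, so the 40 genes did not place any cell directly, although other genes that vary over the cell cycle stayed in. Germ cells numbered 262 and fell into 116 stem cell-like (SSC-like) cells, 65 progenitor-like cells and 81 differentiating-like cells. Lhx1, Etv5 and Bcl6b were at 70.1, 63.0 and 35.3 CPM (UMIs per 1000000 UMIs of the class) in SSC-like cells, and Neurog3 was at 53.7 CPM in progenitor-like cells against 1.98 CPM in SSC-like cells. Kit, the receptor that marks differentiating spermatogonia, was at 99.0 CPM in differentiating-like cells and at 7.13 CPM in SSC-like cells. The differentiating-like cells came from a cluster of 45 cells led by Tbx1, Kit and Lhx8 and from a cluster of 36 cells led by Prss50, Ly6k and Esx1, called the Kit cluster and the Ly6k cluster here. Somatic classes were 255 Sertoli-like, 184 stromal-like and 95 peritubular myoid-like cells, with Sox9 at 456 CPM in the first and Acta2 at 6733 CPM in the last. Over its whole marker list, the stromal-like cluster stood 1.54 above the other cells in mean log-normalized level. By the same score SSC-like cells stood 0.206 above the other germ cells, the lowest of the germ clusters. On the differentiating list the Kit cluster stood 0.512 and the Ly6k cluster 0.424 above the other germ cells. That list had no gene among the leading genes of the Ly6k cluster. A further cluster of 63 cells with a median of 3757 UMIs stayed unnamed. Its best marker score was for germ cells, at 0.427 against 0.068 for red blood cells. However, Hbb-bs, a globin gene, was among its leading genes, as were Henmt1, Luzp4 and Stra8.

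With 1 library there is no replicate, and cells are not replicates of a condition. Intervals given below are 95% intervals that cover counting error only, and no p-value was computed. Ratios between classes are read as larger or smaller than that counting error.

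Germ cells carried more replication transcripts per UMI than Sertoli-like, stromal-like and peritubular myoid-like cells, and within the germ line the level was lowest in progenitor-like cells. The summed level of the 40 genes was 3503 CPM (interval 3430 to 3577) in SSC-like cells and 2392 CPM (2309 to 2477) in progenitor-like cells. In differentiating-like cells it was 4071 CPM (3967 to 4178). Sertoli-like cells had 1229 CPM (1184 to 1275), stromal-like cells 1005 CPM (957 to 1055) and peritubular myoid-like cells 935 CPM (867 to 1007). Neighbours in the order of these 6 classes were parted by more than counting error except for stromal-like over peritubular myoid-like cells, with a log2 ratio of 0.10 (−0.02 to 0.23). These intervals do not cover the spread between cells. In the somatic classes a minority of cells stood far above the rest, as given below. In the smallest clusters the level was 1013 CPM (928 to 1104) in 35 macrophage-like cells and 2363 CPM (2134 to 2610) in 26 cells led by Xcl1, Gzmc and Klrd1, intervals that overlap those of stromal-like and of progenitor-like cells. The median over the 26 cells was 10.1 per 10000 UMIs of a cell, beside 21.5 over progenitor-like cells. Rgs5 and Higd1b were also among the leading genes of these 26 cells. Their best marker scores were 0.510 for T cells and 0.241 for peritubular myoid cells. The germ over Sertoli-like log2 ratio was 1.46 (1.40 to 1.52), a 2.75-fold difference. Sertoli-like over peritubular myoid-like cells gave 0.39 (0.28 to 0.52), which turned to −0.24 with a mitochondrial limit of 5%. Median mitochondrial shares were 7.09% in germ, 6.06% in Sertoli-like and 3.12% in peritubular myoid-like cells. That limit lies below the medians of germ and Sertoli-like cells. Progenitor-like over differentiating-like cells gave −0.77 (−0.83 to −0.70), and −0.22 when the cells were clustered on a split of the counts. That split gave no SSC-like class, so its progenitor-like cells need not be the same set. The level is a share of captured UMIs, and a class with more RNA per cell can have more replication transcripts per cell at the same share. The mean count was 76.2 UMIs of the 40 genes per SSC-like cell and 11.1 per Sertoli-like cell, with median totals of 21170.5 and 8343 UMIs.

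Single cells spread widely within each class. The share of a cell's UMIs from the 40 genes ran from 11.9 to 103 per 10000 in SSC-like cells, with a median of 31.5. In progenitor-like cells the lowest, median and highest were 10.2, 21.5 and 55.2 per 10000. In the Kit cluster they were 24.8, 37.2 and 65.0 per 10000, and in the Ly6k cluster 20.7, 47.4 and 74.6. No differentiating-like cell lay under 20 per 10000, whereas progenitor-like cells lay on both sides of that value. The medians in Sertoli-like, stromal-like and peritubular myoid-like cells were 9.02, 5.73 and 4.63 per 10000, but the highest cells reached 66.4, 69.7 and 69.1, within the range of germ cells.

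**Figure D1:**
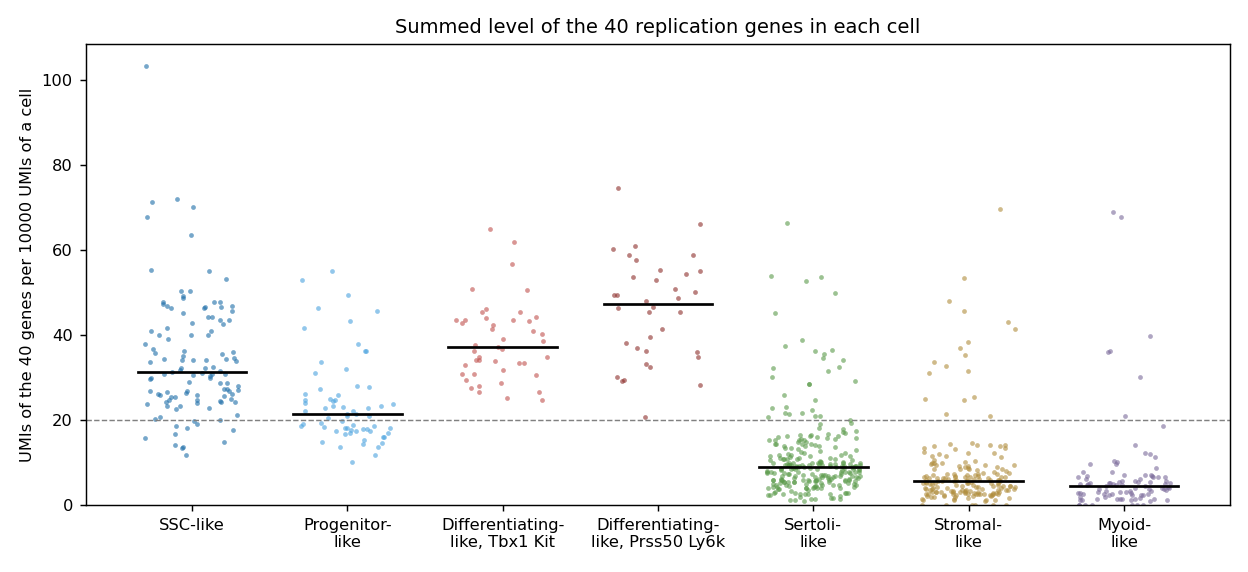
UMIs of the 40 replication genes per 10000 UMIs in each cell (points), by class, with the class median as a bar and the threshold of 20 as a dashed line. Every differentiating-like cell lies above 20 per 10000, progenitor-like cells centre on 21.5, and most somatic cells lie below with a minority inside the germ cell range.

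The share of cells with a high level was set at 20 or more UMIs of the 40 genes per 10000, which is 10 UMIs after each cell is thinned to 5000. Of the thinned cells, 93 of 115 SSC-like cells were high (80.9%, interval 72.5 to 87.6%), as were 39 of 64 progenitor-like cells (60.9%, 47.9 to 72.9%) and 76 of 79 differentiating-like cells (96.2%, 89.3 to 99.2%). The shares were 35 of 235 Sertoli-like cells (14.9%, 10.6 to 20.1%), 18 of 171 stromal-like cells (10.5%, 6.36 to 16.1%) and 7 of 91 peritubular myoid-like cells (7.69%, 3.15 to 15.2%). The intervals of the 3 somatic classes overlap, and their order is not resolved. Without thinning the shares were 89.7%, 55.4%, 100%, 12.5%, 9.78% and 7.37% in the same order of classes. Cells with 8 to 11 UMIs, near the threshold, numbered 19, 25, 4, 26, 5 and 1 in that order. The shares averaged over all possible draws were 86.7%, 61.7%, 97.9%, 13.4%, 10.3% and 7.91%. The progenitor-like share moved with the processing. It was 100% with clusters made on a split of the counts, and 75.4% when red blood cell genes were in addition not held against a name. Clusters from the count split gave no SSC-like class, so the progenitor-like cells there need not be the same set. The progenitor-like share was 96.8% with mitochondrial and ribosomal protein genes left out of the totals. There the threshold stayed at 20 per 10000 of a smaller total, and the level of every class was higher. Thinning left out 1, 1, 2, 20, 13 and 4 cells of these classes as too shallow.

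The somatic cells over the threshold carried transcripts of several of the genes. High stromal-like cells held a median of 12 different genes of the 40 in 5000 UMIs, from 7 to 20, against a median of 2 in the others of that class. The medians were 9, from 6 to 20, against 3 in Sertoli-like cells and 12, from 8 to 21, against 2 in peritubular myoid-like cells. Their summed level was 3780 CPM, beside 576 CPM in the other 153 stromal-like cells. High Sertoli-like cells had 2869 CPM against 864 CPM in the other 200 cells, and high peritubular myoid-like cells 4498 CPM against 466 CPM. These levels are what the threshold selects, and the numbers of different genes rise with the same UMIs. As a measure that the threshold did not use, the 6 germ cell markers summed to 27.7 CPM (10.2 to 60.3) in high stromal-like cells and 29.6 CPM in the others. In Sertoli-like cells they summed to 47.9 CPM (28.9 to 74.9) in high cells and 30.2 CPM (22.8 to 39.3) in the others, and in peritubular myoid-like cells to 34.2 CPM (7.05 to 99.8) and 21.5 CPM. In germ cells the same markers summed to 1339 CPM. The markers of the cells' own class summed to 10776 CPM in high and 7540 CPM in other stromal-like cells, to 8873 and 10021 CPM in Sertoli-like cells, and to 6616 and 9043 CPM in peritubular myoid-like cells. High cells were also deeper before thinning, with medians of 11937.5 against 8349 UMIs in stromal-like, 10445 against 8294.5 in Sertoli-like and 12844 against 7446 in peritubular myoid-like cells, and the part of depth in the high shares was not tested. G2/M genes summed to 5021 CPM in high and 1687 CPM in other Sertoli-like cells, to 4153 and 539 CPM in stromal-like cells and to 2688 and 1020 CPM in peritubular myoid-like cells. Their medians in thinned cells were 13 against 2 UMIs, 3.5 against 1 and 6 against 1, and 10 of the 18 high stromal-like cells held fewer than 10.

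Germ cell marker UMIs were found in a minority of somatic cells, in 14 of the 35 high and 44 of the 200 other Sertoli-like cells, 5 of 18 and 35 of 153 stromal-like cells, and 3 of 7 and 11 of 84 peritubular myoid-like cells. Where these UMIs came from was not tested. Sertoli-like cells held the 6 germ cell markers at 0.0247 of their germ cell level, while the 40 genes stood at 0.364 of theirs. For stromal-like cells these values were 0.0230 and 0.298, and for peritubular myoid-like cells 0.0168 and 0.277.

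Helicase subunits Mcm2 to Mcm7, the factors that load them onto origins and the inhibitor Gmnn made up the 11 licensing genes of the 40. Their sum was 1035, 619 and 1238 CPM across SSC-like, progenitor-like and differentiating-like classes, and 289 CPM in Sertoli-like cells. Mcm2 to Mcm7 alone gave a log2 ratio of −0.03 (−0.15 to 0.08) for SSC-like over differentiating-like cells. The helicase subunits moved together between SSC-like and progenitor-like cells, with log2 ratios from 0.56 for Mcm2 to 1.09 for Mcm3, each with an interval above 0, and together they gave 0.78 (0.64 to 0.93). Mcm3 was at 135, 63.6 and 128 CPM across SSC-like, progenitor-like and differentiating-like classes. Mcm5 was at 130, 62.1 and 131 CPM in the same classes. Both genes had intervals that overlap between SSC-like and differentiating-like cells, with lower values in progenitor-like cells. Over Sertoli-like cells the 6 subunits stood 3.74-fold higher in germ cells.

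Gmnn, the inhibitor of Cdt1 (chr13:24751845-24761923, minus strand), had the highest level of the licensing genes in germ cells. It was at 87.1 CPM (71.9 to 104) in progenitor-like, 162 CPM (146 to 178) in SSC-like, 334 CPM (298 to 373) in the Kit cluster and 307 CPM (259 to 361) in the Ly6k cluster. Progenitor-like over differentiating-like cells gave a log2 ratio of −1.90 (−2.21 to −1.60). In Sertoli-like cells it was at 70.1 CPM, against 25.8 and 26.5 CPM across stromal-like and peritubular myoid-like cells. Cdt1, its target, varied less, with 68.6, 53.7 and 64.8 CPM in SSC-like, progenitor-like and differentiating-like classes. An overlapping gene on the same strand, Gm20388, was counted beside Cdt1 and could take some of its reads.

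Orc1, the largest subunit of the origin recognition complex (chr4:108579423-108614833, plus strand), was rare in the main somatic classes. It had 43, 9 and 34 UMIs over the SSC-like, progenitor-like and differentiating-like classes, for 17.0, 6.81 and 24.2 CPM, but 2 in Sertoli-like, 1 in stromal-like and 0 in peritubular myoid-like cells. In the small cluster led by Xcl1 it had 2 UMIs, for 12.1 CPM (1.47 to 43.8), and in the unnamed cluster 5, for 16.2 CPM (5.25 to 37.8). At 0 of 754010 UMIs in peritubular myoid-like cells, a level of Orc1 up to 3.98 CPM is allowed there, by a limit of 3 counts. Its germ over Sertoli-like log2 ratio was 4.23 (2.34 to 7.30), the highest of the 40 genes. Orc6 behaved otherwise, with 114, 81.0 and 120 CPM in the germ stages and 43.6 to 56.6 CPM in the somatic classes. Cdc6, which recruits the helicase with Cdt1, had 9 UMIs in progenitor-like cells and 41 in differentiating-like cells, for 6.81 and 29.2 CPM.

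The helicase activators Mcm10, Cdc45 and Gins1 to Gins3 were the sparsest group besides the cyclins, summing to 160, 96.9 and 177 CPM across SSC-like, progenitor-like and differentiating-like classes. Cdc45 was 11.4-fold higher in germ than in Sertoli-like cells, with 39.8 and 3.48 CPM. Gins1 was at 32.1 and 10.6 CPM across SSC-like and progenitor-like cells, a log2 ratio of 1.60 (0.77 to 2.53). Gins2 stood apart from its partners. It was at 38.4, 30.3 and 31.2 CPM in SSC-like cells, progenitor-like cells and the Kit cluster, and at 105 CPM (78.0 to 138) in the Ly6k cluster. Mcm10 was higher in SSC-like than in differentiating-like cells, with a log2 ratio of 0.60 (0.05 to 1.19).

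Among the polymerase and primase genes, Pola2 (the accessory subunit of polymerase alpha) was at 95.1, 76.5 and 191 CPM across SSC-like, progenitor-like and Kit cluster cells. In the Ly6k cluster Pola2 was over 2-fold lower than in the Kit cluster, as given below. Prim1, the primase catalytic subunit, was at 42.8, 19.7, 38.8 and 88.2 CPM over SSC-like cells, progenitor-like cells, the Kit cluster and the Ly6k cluster. Pole, the catalytic subunit of the leading strand polymerase, was at 42.4, 38.6, 46.3 and 90.3 CPM in the same order. It had 18 UMIs in Sertoli-like, 4 in stromal-like and 0 in peritubular myoid-like cells. Pold1, for the lagging strand polymerase, ranged from 40.9 CPM in progenitor-like cells to 81.9 CPM in the Kit cluster. The group's germ over Sertoli-like ratio was 4.28-fold.

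Pola1, the catalytic subunit of polymerase alpha (chrX:93304767-93632155, minus strand), was unlike the rest because a few cells held a large part of its UMIs. The 3 highest of 262 germ cells had 33, 30 and 26 UMIs, and together held 38.7% of the 230 UMIs, while 70.6% of cells had none. A Poisson spread at the cells' own depths would leave 43.3% at 0. The squared deviation of its counts from those expected from depth, divided by the expected count, averaged 12.6, where a Poisson spread gives an average near 1. Only 0.358% of the 8094 genes with at least 50 UMIs in germ cells had an index as high. By class sums Pola1 was at 28.1, 49.2 and 66.9 CPM across SSC-like, progenitor-like and differentiating-like classes. With the UMIs of the 3 highest cells of each class left out it was at 20.6, 9.08 and 19.9 CPM, so the order of the classes changed. Slbp (4.19) and Pola2 (3.62) were next by the same index, with single cells of up to 35 and 33 UMIs. Cdt1 was the lowest of the 40 genes, at 0.989.

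**Figure D2:**
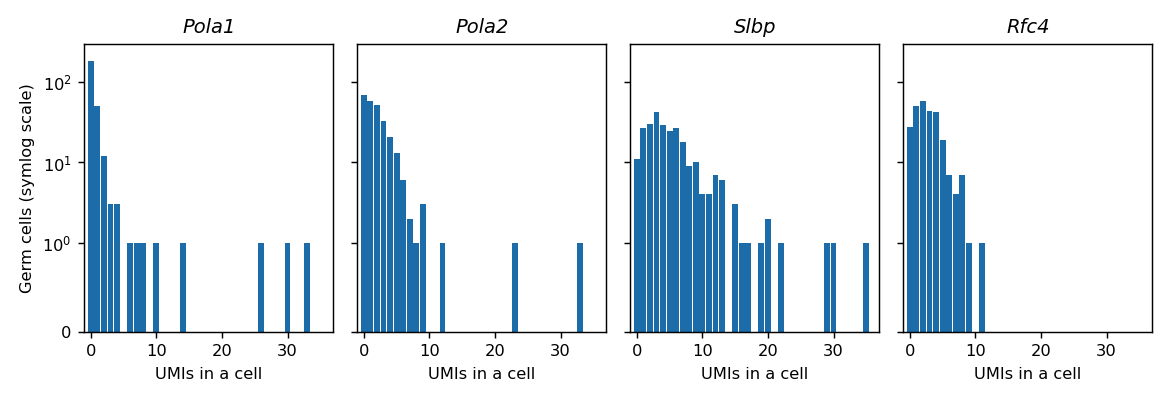
Number of germ cells (symlog axis) by the UMIs of a gene they held, for Pola1, Pola2, Slbp and, as a gene of even spread, Rfc4. Pola1 has 185 cells at 0 and single cells at 26, 30 and 33 UMIs, while no cell held more than 11 UMIs of Rfc4.

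The clamp Pcna was at 138, 73.4, 117 and 174 CPM across SSC-like, progenitor-like, Kit cluster and Ly6k cluster cells. Among its loader subunits, Rfc4 was at 147, 126 and 124 CPM in SSC-like, progenitor-like and differentiating-like classes, and Rfc5 at 82.0, 84.8 and 69.8 CPM. Rfc2 was at 65.3 CPM in Sertoli-like and 89.2 CPM in germ cells, a log2 ratio of 0.45 (0.18 to 0.72). Rpa1, a subunit of the complex that binds single strands, was the only 1 of the 40 genes whose germ over Sertoli-like interval included 0, with a log2 ratio of 0.32 (−0.09 to 0.74). Its partner Rpa2 gave 2.04 (1.76 to 2.34), with 205 and 49.7 CPM. Over the group the SSC-like over progenitor-like log2 ratio was 0.32 (0.20 to 0.44), beside 0.55 (0.49 to 0.61) for the sum of the 40 genes.

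Of the pair that processes the lagging strand, the ligase Lig1 was at 258, 128 and 320 CPM across SSC-like, progenitor-like and differentiating-like classes, and at 48.0 to 54.4 CPM in the somatic classes. The flap nuclease Fen1 was at 64.6, 61.3 and 86.2 CPM in the germ stages.

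Nucleotide supply was the group nearest between germ and Sertoli-like cells, at 448 and 323 CPM, with Dut as its most abundant member. This dUTPase (chr2:125247190-125258608, plus strand), which keeps uracil out of DNA, stood at 296 CPM (275 to 318) in SSC-like cells, at 201 CPM in the progenitor-like class and at 227 CPM (208 to 247) in Sertoli-like cells. In stromal-like and peritubular myoid-like cells it was at 76.9 and 65.0 CPM. Dut made up 18.5% of the UMIs of the 40 genes in Sertoli-like cells and 7.87% in germ cells. Without Dut the Sertoli-like over stromal-like log2 ratio of the sum was 0.11, against 0.29 with it, and the Sertoli-like over peritubular myoid-like ratio was 0.20 against 0.39. Rrm2, the subunit of ribonucleotide reductase made in S phase, ranged more widely between germ stages, from 9.84 CPM in progenitor-like to 32.5 CPM in SSC-like and 126 CPM in Ly6k cluster cells. Its partner Rrm1 was at 39.4, 74.5 and 86.1 CPM in the same cells. Tyms, thymidylate synthase, was at 61.0 CPM in peritubular myoid-like and 52.2 CPM in progenitor-like cells, with intervals that overlap.

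In the group of chromatin assembly and histone mRNA, Chaf1b went against the other genes. This subunit of chromatin assembly factor CAF-1 (chr16:93883901-93906115, plus strand) was at 51.1, 60.6, 29.1 and 4.20 CPM (0.509 to 15.2) across SSC-like, progenitor-like, Kit cluster and Ly6k cluster cells, the last from 2 UMIs in 36 cells. Progenitor-like over differentiating-like cells gave a log2 ratio of 1.55 (0.92 to 2.22), the only 1 of the 38 genes counted to reach 2-fold in that direction. Chaf1a, its partner, was at 47.2, 30.3, 49.5 and 50.4 CPM in the same order. Slbp, which binds histone mRNA, was at 277, 193, 251 and 462 CPM.

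The cyclin E genes, whose products activate Cdk2 at the start of S phase, differed most between progenitor-like and differentiating-like cells. Ccne2 had 28 UMIs in SSC-like, 8 in progenitor-like, 32 in Kit cluster and 48 in Ly6k cluster cells, for 11.1, 6.06, 34.5 and 101 CPM. Its progenitor-like over differentiating-like log2 ratio was −3.23 (−4.49 to −2.19). Ccne1 was at 16.6, 7.57, 32.3 and 63.0 CPM in the same cells, and both cyclins were at 2.18 to 6.15 CPM in the somatic classes.

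**Figure D3:**
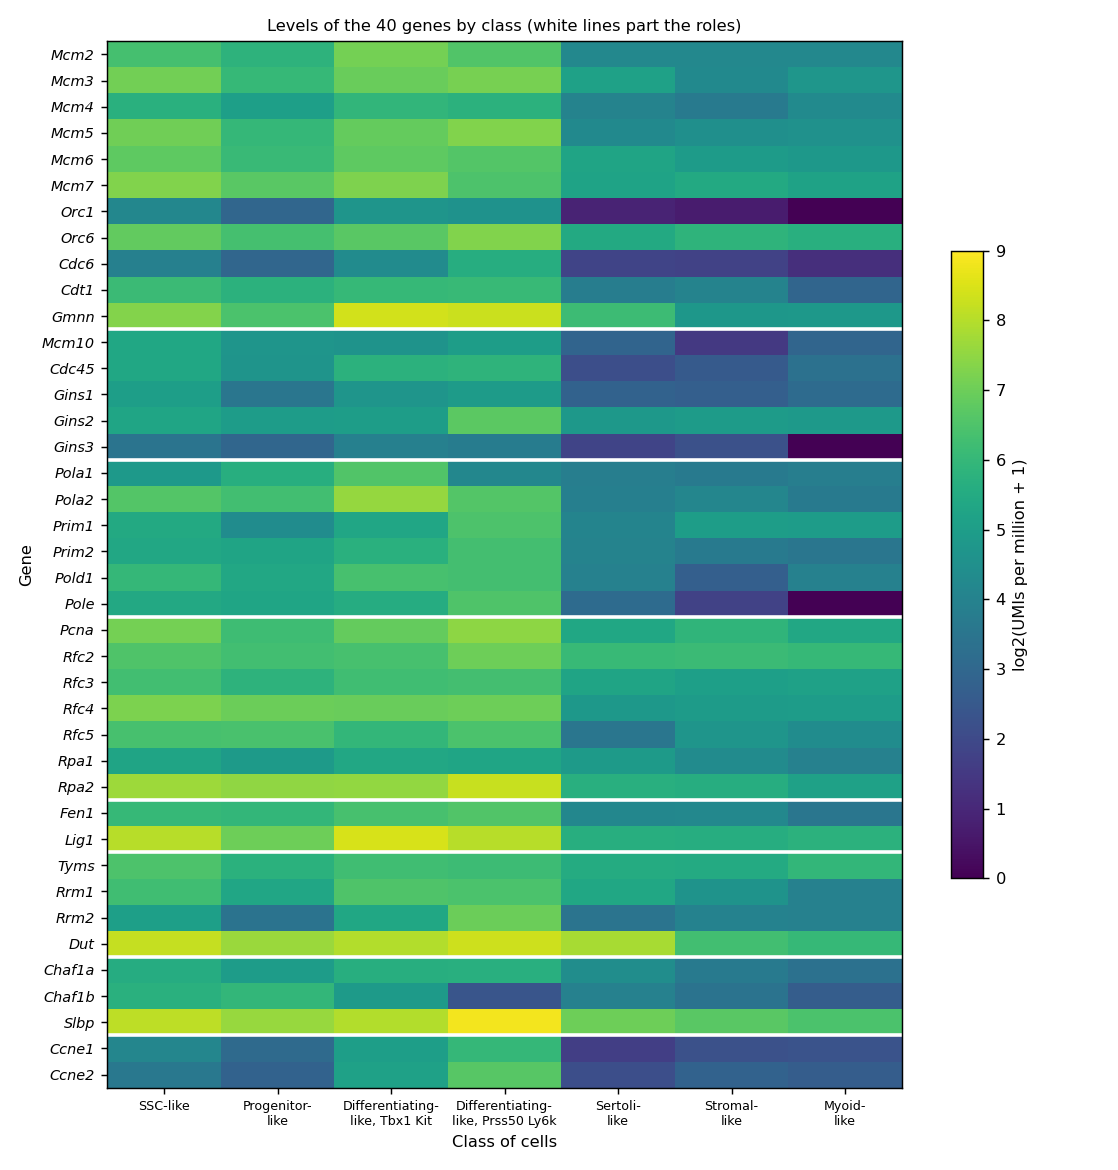
Level of each of the 40 genes, as log2 of CPM plus 1, in 4 germ cell clusters and 3 somatic classes, with white lines between roles. The progenitor-like column is the darkest of the germ columns for 34 of the 40 genes, and Chaf1b, Mcm7 and Pola1 are darkest in the Ly6k cluster (labelled Prss50 Ly6k).

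Gene by gene, the progenitor-like level was the lowest of the 4 germ clusters for 34 of the 40 genes, and the Ly6k cluster was the highest for 21, the Kit cluster for 12 and the SSC-like cluster for 6. SSC-like and differentiating-like cells each exceeded all 3 somatic classes for all 40 genes. Progenitor-like cells did so for 34, the exceptions being Prim1, Tyms, Rrm1, Rrm2, Dut and Ccne2.

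Genes at least 2-fold apart were counted among those with at least 50 UMIs in both classes together, beside the same count over all genes. In SSC-like over progenitor-like cells 8 of 37 genes were at least 2-fold higher (Mcm3, Mcm5, Orc1, Gins1, Prim1, Lig1, Rrm2 and Ccne1) and 0 were 2-fold lower, where 4.34% and 1.39% of all genes were. The median log2 ratio was 0.58, against 0.07 over all genes. In progenitor-like over differentiating-like cells 1 of 38 genes (Chaf1b) was at least 2-fold higher and 14 were lower (Mcm2, Mcm3, Mcm5, Cdc6, Gmnn, Cdc45, Gins1, Pola2, Prim1, Lig1, Rrm1, Rrm2, Ccne1 and Ccne2), beside 5.46% and 9.8% of all genes, with medians of −0.73 and −0.20. The 8 and 14 genes became 1 and 5 at a clustering resolution of 1.2. In SSC-like over differentiating-like cells 1 of 39 (Chaf1b) was higher and 6 were lower (Cdc6, Gmnn, Pola1, Rrm2, Ccne1 and Ccne2), beside 7.05% and 6.44%, and the median of −0.17 was near the −0.11 of all genes. With the cell that held the most UMIs of each gene left out, a setting chosen after the data were seen, 3 genes were lower in place of 6.

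In germ over Sertoli-like cells 33 of 40 genes were at least 2-fold higher and 0 lower, beside 25.1% and 22.3% of all genes, with medians of 1.88 and 0.10. The 7 others were Gins2, Rfc2, Rfc3, Rpa1, Tyms, Rrm1 and Dut. In Sertoli-like over stromal-like cells 28 genes had enough UMIs, of which 2 (Gmnn and Dut) were higher and 2 (Prim1 and Rfc5) lower, beside 25.5% and 10.8%, and their median of 0.04 lay below the 0.39 of all genes. In Sertoli-like over peritubular myoid-like cells 4 of 21 genes were higher (Gmnn, Rrm1, Dut and Chaf1a) and 0 lower, beside 30.4% and 8.79%, with medians of 0.03 and 0.52. In these last pairs 12 and 19 of the 40 genes fell under 50 UMIs and were not counted.

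**Figure D4:**
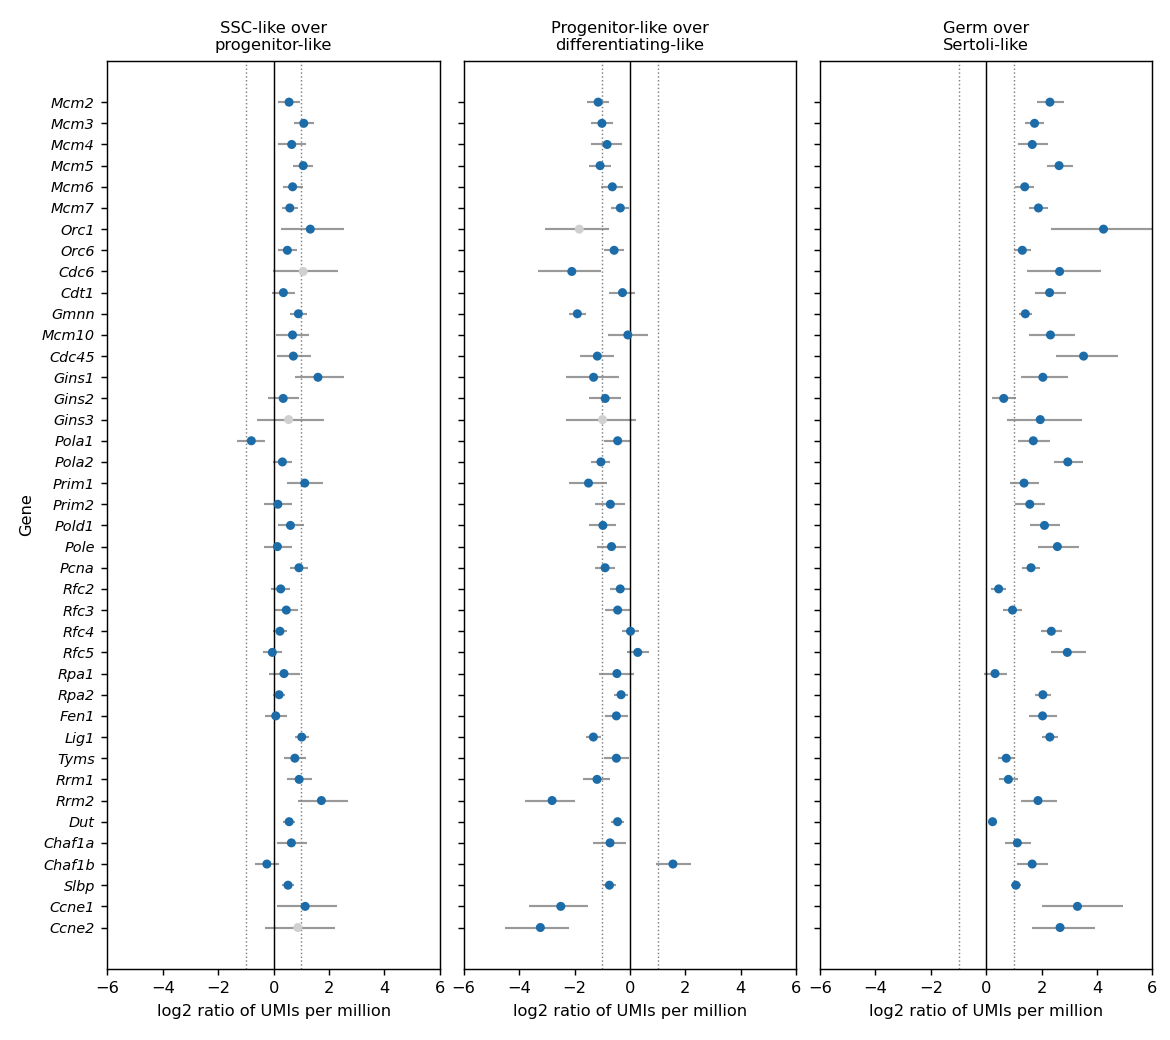
Log2 ratio of CPM for each of the 40 genes between 3 pairs of classes, with 95% counting intervals (lines, cut at the axis limits of −6 and 6), dotted lines at 2-fold and genes under 50 UMIs in grey. Most genes lie right of 0 for SSC-like over progenitor-like and left of 0 for progenitor-like over differentiating-like cells, where Chaf1b lies at 1.55, and all 40 lie right of 0 for germ over Sertoli-like cells.

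Another list held 59 replication genes outside the 40. Its sum stood at 0.55 for SSC-like over progenitor-like and −0.80 for progenitor-like over differentiating-like cells on the log2 scale, beside 0.55 and −0.77 for the 40. It was 2.30-fold higher in germ than in Sertoli-like cells, less than the 2.75-fold of the 40, with log2 intervals of 1.16 to 1.25 and 1.40 to 1.52. At least 2-fold higher and lower were 7 and 0 of 47 genes in the first pair, 1 and 15 of 47 in the second and 34 and 1 of 56 in the third, where its median log2 ratio was 1.28 against 1.88 for the 40. In the first pair Uhrf1, a maintenance factor of DNA methylation, led with a log2 ratio of 1.90, followed by the phosphatase gene Cdc25a at 1.86 and the thymidine kinase gene Tk1 at 1.53. Dctd, the deaminase that makes the precursor of thymidylate, was the lowest at −0.99, and gave the highest value of the second pair at 2.03. Cdc25a at −2.43, Clspn at −1.76 and Pold2 at −1.71 were lowest in the second pair. In SSC-like over differentiating-like cells Pold2 (−1.26) and Donson (−1.13) were lowest and Dctd (1.04) highest. In germ over Sertoli-like cells Hells (3.67), Cdca7 (3.63) and Dck (3.52) were highest and Top1 (−1.21) lowest. Pold4, a small subunit of polymerase delta, was the lowest of the list in Sertoli-like over stromal-like (−2.49) and over peritubular myoid-like cells (−2.75), and Cdk2 (1.92) and Topbp1 (3.01) were the highest.

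The Ly6k cluster exceeded the Kit cluster for the sum by a log2 ratio of 0.21 (0.13 to 0.29), but not evenly. Cyclin E (1.29), the helicase activators (0.67) and the histone group (0.65) were higher. The licensing genes did not part by more than counting error (−0.02, −0.16 to 0.13), and lagging strand joining was lower (−0.31, −0.58 to −0.04). In the histone group Slbp was higher, while Chaf1a was nearly level and Chaf1b lower, as given above. As a share of the summed UMIs, Gins2 went from 0.808% in the Kit cluster to 2.35% in the Ly6k cluster. Mcm10, Cdc45, Gins1 and Gins3 went from 0.613, 1.39, 0.641 and 0.362% to 0.704, 1.27, 0.657 and 0.282%. The ratios of these groups without Slbp or Gins2 were not computed. Among the 34 genes with at least 50 UMIs in both clusters together, Gins2 (1.75), Rrm2 (1.66), Ccne2 (1.55) and Prim1 (1.19) were over 2-fold higher and Pola1 (−2.46) and Pola2 (−1.01) lower. These are 4 and 2 of 34, beside 6.68% and 9.35% of all genes. The sum of Pola1 rests on few cells, as given above. For Pola2 the 3 highest germ cells held 12.1% of the UMIs, and 1 differentiating-like cell held 33 UMIs. Without the 3 highest cells of each class Pola2 was at 77.7, 64.3 and 122 CPM across SSC-like, progenitor-like and differentiating-like classes. The last 2 of these values lie under 2-fold apart. The Ly6k over Kit cluster ratio of Pola2 without such cells was not computed. Ly6k cluster cells were shallower, with a median of 13253 UMIs against 21696.

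S phase and G2/M transcripts were then set against each other in thinned cells, with a list of 42 G2/M genes and the same threshold of 10 in 5000 UMIs. Of 258 germ cells, 173 passed both, 35 passed for replication genes only, 29 for G2/M genes only and 21 for neither. In progenitor-like cells the numbers were 24, 15, 11 and 14, so that 14 of the 21 germ cells low for both were progenitor-like. In differentiating-like cells 74 of 79 passed both and 0 passed neither. Spearman's rho over cells, given as a description because thinned cells share a library and a fixed total, was 0.11, 0.42 and −0.19 over the SSC-like, progenitor-like and differentiating-like classes. With the 59 further replication genes it was 0.68, 0.42 and 0.36. Summed over all cells of a class, G2/M genes were also lowest in progenitor-like cells, at 4428, 2332 and 4628 CPM over the same classes. Their log2 ratio was 0.93 for SSC-like over progenitor-like cells, beside 0.55 for the 40 genes. For progenitor-like over differentiating-like cells it was −0.99, beside −0.77 for the 40 genes.

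Sertoli-like cells split by cluster. Cluster 7, of 40 cells and led by genes such as Arhgef39, Psrc1 and Hist1h1b, had 9062 CPM of G2/M genes against 816 CPM in the other Sertoli-like cells. The G2/M list had been taken out of the variable genes, but other genes that vary over the cell cycle stayed in. The G2/M level is thus not independent of how these cells were grouped. The level of the 40 genes in cluster 7 was 1786 CPM against 1113 CPM, a log2 ratio of 0.68 (0.56 to 0.81), much below that for G2/M genes at 3.47. All 13 of its cells high for replication genes were also high for G2/M genes, and 24 of its 38 thinned cells were high for G2/M genes only. Of the 22 high cells in the other Sertoli-like clusters, 15 were high for replication genes only. Within cluster 7 the log2 ratio over the other clusters was 1.69 for Gmnn, 1.63 for Rfc4 and 1.61 for Tyms, and 0.10 (−0.30 to 0.49) for the sum of Mcm2 to Mcm7. Cluster 4 exceeded cluster 2 by 0.39 (0.26 to 0.51) for the sum, with 1299 and 993 CPM. Their medians over cells were close, at 8.27 and 8.12 per 10000, while 14 of 75 and 8 of 122 thinned cells were high.

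**Figure D5:**
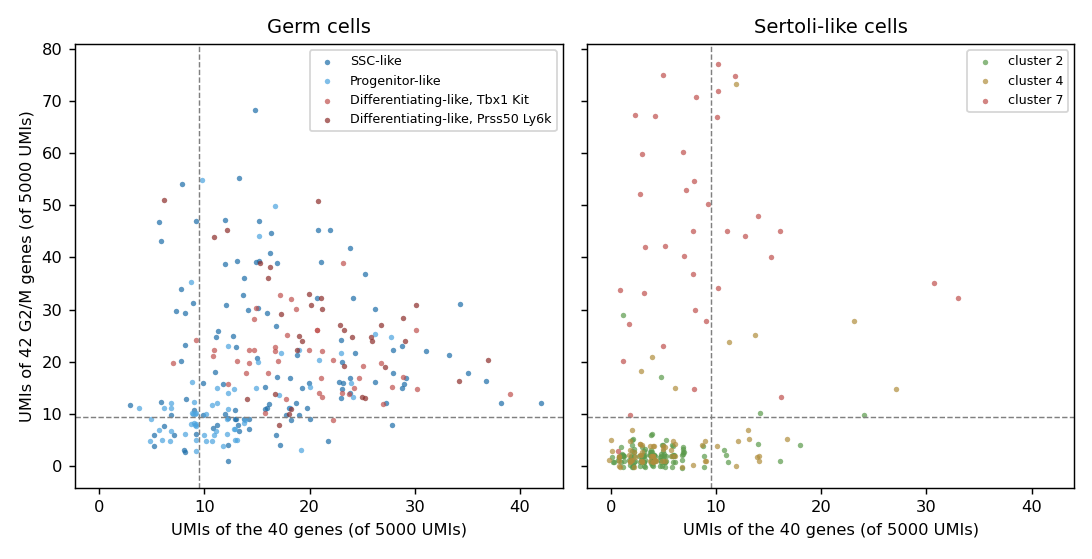
UMIs of the 40 replication genes against UMIs of 42 G2/M genes in cells thinned to 5000 UMIs (points, slightly displaced), for germ cells by class (left) and Sertoli-like cells by cluster (right), with dashed lines just below the threshold of 10. Most germ cells lie at upper right, and among Sertoli-like cells cluster 7 lies high for G2/M genes with 13 of 38 cells past both lines.

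The genes outside these lists whose thinned counts followed the summed level most closely were ranked by Spearman's rho over cells. In 258 germ cells, among 2418 genes found in at least 25% of them, the 10 highest were Ptma (0.52), H3f3b (0.46), Hist1h2ap (0.44), Hmgb2 (0.37), Hist1h2ak (0.37), Dek (0.36), Ranbp1 (0.34), Psmc3ip (0.30), Fam98b (0.29) and Esco2 (0.29). In 235 Sertoli-like cells they were Anp32b (0.32), H2afz (0.31), Hmgb2 (0.30), Dtymk (0.28), Ptma (0.28), Tuba1b (0.26), Ccdc34 (0.26), Dek (0.26), Cycs (0.25) and Ezh2 (0.25). Another thinning with a new seed returned 8 of the 10 germ cell genes but 3 of the 10 Sertoli-like genes, so the latter ranking is weak. Among the 40 genes, Gmnn (0.42), Lig1 (0.38), Pcna (0.34) and Mcm5 (0.34) had the highest rho with the sum of the others in germ cells.

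The unnamed cluster of 63 shallow cells had 4398 CPM of the 40 genes (4167 to 4638), above all germ cells together by a log2 ratio of 0.38 (0.30 to 0.46). The Ly6k cluster, at 4475 CPM (4287 to 4669), overlapped it. In the unnamed cluster the 6 germ cell markers summed to 1518 CPM, beside 1339 CPM in germ cells. The median share of mitochondrial UMIs in the unnamed cluster was 1.37%, beside 7.09% in germ cells. Of the cells in the unnamed cluster 58 of 63 (92.1%) were high without thinning, and 42 were too shallow to thin. The 59 further replication genes gave 4592 CPM there and 4747 CPM in germ cells, a log2 ratio of −0.05 (−0.13 to 0.03).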

How the data were processed

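UMI counts per gene and barcode were deposited by the authors without normalization, after alignment to mm10; Cell Ranger 2.1.0 and Seurat are named in the submitters' processing notes. Gene positions are from GENCODE M21 (GRCm38, the same build). Barcodes under 500 genes (10), at or over 10% mitochondrial UMIs (36) or called doublets by scrublet (4; scanpy 1.11.5) were left out. Cells were clustered with Seurat 5.3.0 in R 4.3.3 (14 principal components, resolution 0.5) and named by the marker list with the largest mean difference in log-normalized level. Counts were summed per class with scipy 1.17.1, with exact Poisson intervals for levels and exact (Clopper-Pearson) intervals for shares and ratios, at 95%. A class at 0 was held at 3 counts in ratios. The code was tested on simulated data. The 40 genes and all lists were chosen with earlier results of these data known. The text describes all 40 genes, up to 3 further replication genes at each end of each pair, and the 10 genes of no list that correlated best. Intervals cover counting error only.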

Additional observations from a re-analysis of the deposited data

How the results depend on the processing

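Each class level, share, ratio and 2-fold count was recomputed under the alternatives named here, and the values that moved beyond their counting error, or by over 1.5 times for a count, are given by setting. The cause of a move was not tested. Where genes were left out of the totals, the threshold stayed at 20 per 10000 of a smaller total. Of 89 recomputed ratios, 88 kept their direction or were 0. The exception was Sertoli-like over myoid-like with a mitochondrial limit of 5%. With a mitochondrial limit of 5%, the values were levels in CPM of 4300 (germ) and 1454 (myoid-like), with high shares of 91.2% (germ) and 17.1% (myoid-like), with log2 ratios of 1.81 in germ over Sertoli-like and −0.24 in Sertoli-like over myoid-like, with 2-fold counts of 15 higher in germ over Sertoli-like, 0 lower in Sertoli-like over stromal-like, 1 higher in Sertoli-like over myoid-like and 2 lower in Sertoli-like over myoid-like. With no mitochondrial limit, the values were levels in CPM of 2309 (progenitor-like), with 2-fold counts of 1 lower in Sertoli-like over myoid-like. With cell cycle genes kept for clustering, the values were levels in CPM of 3433 (germ), 3650 (SSC-like), 2166 (progenitor-like) and 4216 (differentiating-like), with log2 ratios of 0.75 in SSC-like over progenitor-like and −0.96 in progenitor-like over differentiating-like, with 2-fold counts of 14 higher in SSC-like over progenitor-like and 2 lower in SSC-like over differentiating-like. With 2000 variable genes by vst, the values were levels in CPM of 3440 (germ), 3739 (SSC-like), 2802 (progenitor-like) and 1192 (myoid-like), with log2 ratios of 0.42 in SSC-like over progenitor-like, −0.12 in SSC-like over differentiating-like, −0.54 in progenitor-like over differentiating-like and 0.044 in Sertoli-like over myoid-like, with 2-fold counts of 2 higher in SSC-like over progenitor-like, 3 lower in SSC-like over differentiating-like, 7 lower in progenitor-like over differentiating-like, 1 lower in Sertoli-like over stromal-like and 1 lower in Sertoli-like over myoid-like. At resolution 0.3, the values were 2-fold counts of 1 lower in Sertoli-like over stromal-like. At resolution 1.2, the values were levels in CPM of 3740 (SSC-like) and 2814 (progenitor-like), with log2 ratios of 0.41 in SSC-like over progenitor-like, −0.12 in SSC-like over differentiating-like and −0.53 in progenitor-like over differentiating-like, with 2-fold counts of 1 higher in SSC-like over progenitor-like, 0 higher in SSC-like over differentiating-like, 3 lower in SSC-like over differentiating-like and 5 lower in progenitor-like over differentiating-like. With clusters from a split of the counts and levels from the other counts, the values were levels in CPM of 4007 (germ), 3817 (progenitor-like), 4445 (differentiating-like) and 1022 (myoid-like), with high shares of 99% (germ) and 100% (progenitor-like), with log2 ratios of −0.22 in progenitor-like over differentiating-like, 1.70 in germ over Sertoli-like and 0.27 in Sertoli-like over myoid-like, with 2-fold counts of 0 higher in progenitor-like over differentiating-like, 1 lower in progenitor-like over differentiating-like, 0 lower in Sertoli-like over stromal-like and 2 higher in Sertoli-like over myoid-like. With called doublets kept, the values were 2-fold counts of 1 lower in Sertoli-like over stromal-like. With the unnamed cluster counted as germ (globin genes not held against a name), the values were levels in CPM of 3432 (germ) and 3605 (SSC-like), with 2-fold counts of 0 higher in SSC-like over differentiating-like and 2 lower in SSC-like over differentiating-like. With the count split and that naming together, the values were levels in CPM of 3133 (progenitor-like) and 1022 (myoid-like), with high shares of 75.4% (progenitor-like), with log2 ratios of −0.40 in progenitor-like over differentiating-like and 0.27 in Sertoli-like over myoid-like, with 2-fold counts of 0 higher in progenitor-like over differentiating-like, 4 lower in progenitor-like over differentiating-like, 0 lower in Sertoli-like over stromal-like and 2 higher in Sertoli-like over myoid-like. With mitochondrial and ribosomal protein genes left out of the totals, the values were levels in CPM of 5229 (germ), 5404 (SSC-like), 3934 (progenitor-like), 6024 (differentiating-like), 1718 (Sertoli-like), 1558 (stromal-like) and 1477 (myoid-like), with high shares of 98.8% (germ), 100% (SSC-like), 96.8% (progenitor-like), 27.8% (Sertoli-like), 23.5% (stromal-like) and 22.2% (myoid-like), with log2 ratios of 0.46 in SSC-like over progenitor-like, −0.16 in SSC-like over differentiating-like, −0.61 in progenitor-like over differentiating-like, 1.61 in germ over Sertoli-like, 0.14 in Sertoli-like over stromal-like and 0.22 in Sertoli-like over myoid-like, with 2-fold counts of 5 higher in SSC-like over progenitor-like and 1 lower in Sertoli-like over myoid-like. At a threshold of 10 per 10000, the values were high shares of 99.2% (germ), 99.1% (SSC-like), 98.4% (progenitor-like), 100% (differentiating-like), 46.4% (Sertoli-like), 24% (stromal-like) and 22% (myoid-like). At 40 per 10000, the values were high shares of 33.3% (germ), 32.2% (SSC-like), 10.9% (progenitor-like), 53.2% (differentiating-like), 2.13% (Sertoli-like) and 4.68% (stromal-like). Without thinning, the values were high shares of 89.7% (SSC-like) and 100% (differentiating-like). At a minimum of 20 UMIs, the values were 2-fold counts of 4 higher in Sertoli-like over stromal-like. At a minimum of 100 UMIs, the values were 2-fold counts of 4 higher in SSC-like over progenitor-like and 0 lower in Sertoli-like over stromal-like. At a minimum of 1 UMI, the values were 2-fold counts of 5 higher in Sertoli-like over stromal-like and 2 lower in Sertoli-like over myoid-like. As a mean over cells, the values were levels in CPM of 3428 (germ), 4188 (differentiating-like), 1159 (Sertoli-like), 876 (stromal-like) and 746 (myoid-like), with log2 ratios of −0.28 in SSC-like over differentiating-like, 1.56 in germ over Sertoli-like, 0.40 in Sertoli-like over stromal-like and 0.64 in Sertoli-like over myoid-like. Without the cell with the most UMIs of each gene, the values were log2 ratios of 0.62 in SSC-like over progenitor-like and 0.65 in Sertoli-like over myoid-like, with 2-fold counts of 3 lower in SSC-like over differentiating-like and 1 lower in Sertoli-like over stromal-like. With 1 gene left out, the highest values, the values were log2 ratios of −0.17 in SSC-like over differentiating-like, −0.70 in progenitor-like over differentiating-like and 1.63 in germ over Sertoli-like. With 1 gene left out, the lowest values, the values were log2 ratios of 0.11 in Sertoli-like over stromal-like and 0.20 in Sertoli-like over myoid-like. The alternatives with the unnamed cluster counted as germ and without the cell with the most UMIs were chosen after the data were seen. A mitochondrial limit of 5% left no germ stage named, and the count split gave no SSC-like class, so they have no values there. No paired analysis was possible because the data hold 1 library. With 1 library of 3 pooled mice, the spread between mice is unknown, and depth limits the sparse genes most, since 19 of the 40 had under 50 UMIs in Sertoli-like and myoid-like cells together.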
